A study of Mus musculus with 2 samples.

Results

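Rab proteins are small GTPases, and their genes are described here in activated mouse macrophages. The members are all rows of both deposited tables whose symbol is Rab followed by digits and at most 1 more letter, or by l and a digit. This rule found 54 of the 16263 genes listed, and it used names only, not measured values. The samples were bone marrow-derived macrophages of C57BL/6 mice, wild type (WT) or labelled SIRPalpha-/- (SIRPα-KO), a genotype meant to remove an inhibitory receptor of myeloid cells. The allele is not described in the labels, and SIRPα-KO below names the library by its label. Marrow cells had grown for 5 days in M-CSF-conditioned medium, and both groups then received IFNγ (20 ng/ml) and LPS (100 ng/ml) for 6 h, an M1 stimulus, with a reagent labelled mCD47.ex also present. Neither group lacked the stimulus or mCD47.ex, so the data hold no resting cells. Macrophages of 5 mice per genotype were pooled before extraction, so each genotype is 1 library, the spread between mice is unknown, and no difference below has a replicate check or a p-value.

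Rab proteins switch between a GDP-bound form, held in the cytosol by GDP dissociation inhibitors, and a GTP-bound form on a membrane, where effectors are recruited. Exchange factors (GEFs) load GTP and GTPase-activating proteins (GAPs) end the cycle, while a lipid tail added by prenylation anchors the protein. Each Rab marks its own compartment. In macrophages Rab5 and Rab7 act in turn on a maturing phagosome, and other Rabs steer receptors to the surface, cytokines through the Golgi and granules to secretion.

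Levels are in FPKM (fragments scaled by transcript length and by library size), a unit inferred from the values. Depth was about 11200000 reads for WT and 11100000 for SIRPα-KO, estimated from the step between low values. A fold change is a ratio of FPKM, given with a 95% exact (Clopper-Pearson) counting interval computed from estimated reads, which covers counting error only. A gene was kept where either library reached 1 FPKM, and called at a difference of at least 2-fold in FPKM + 1. Counts of genes at or past 2-fold or 1.5-fold use that scale throughout, so a low gene can differ 2-fold in FPKM and not be counted. A log2 ratio is the difference of log2(FPKM + 1), SIRPα-KO minus WT, a scale that understates low genes. Sirpa was at 153.9 FPKM in the WT library and 71.5 in the SIRPα-KO library, so its transcript was still present in the library labelled as the knockout. Of 11 macrophage markers kept, 0 were called higher and 1 lower, Csf1r, the receptor for M-CSF, at 247.6 and 109.8 FPKM, and Cd14, a co-receptor for LPS, was at 290.2 and 163.8. The median log2 ratio of the 11 macrophage markers was -0.004. Their summed level was 13400 and 13436 FPKM, and 6293 and 6228 without Lyz2, the most abundant. Dendritic cell markers summed to 60.4 and 193.6 FPKM, but to 49.2 and 54.4 without the chemokine gene Ccl22. Of 8 kept markers 3 were higher (Ccl22, Ccr7, Dpp4) and 1 lower (Itgax), while the defining genes Flt3 (0.34 and 0.10) and Zbtb46 (0.20 and 0.70) stayed under 1 FPKM. Neutrophil markers summed to 429.6 and 199.2 FPKM, with 0 of 10 kept markers higher and 5 lower (Ngp, S100a8, S100a9, Camp and Elane). The B cell markers were low and summed to 6.11 and 2.51 FPKM, with 0 of 3 kept markers called and 2 lower at 1.5-fold. No marker of these 4 lists was at 0 in both libraries, and the part of such cells in the results below was not tested. The nuclear transcript Malat1 was at 83.7 and 32.9 FPKM, and its relation to the results was not tested either. Transcripts of the sex chromosomes also differed. Xist, from the inactive X chromosome, was at 47.5 and 0.91 FPKM, while the Y-linked Eif2s3y (21.4), Ddx3y (11.6) and Kdm5d (2.52) were found in the SIRPα-KO library and listed at 0 in WT. The sex of the pooled mice therefore cannot be told apart from genotype in any difference below, those of Rab43 and Rab32 included. In a pooled population, fewer cells of a type and less RNA per cell cannot be told apart.

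Of the 54 Rab genes, 38 were kept. Of these, Rab43 was the 1 gene called higher in SIRPα-KO, Rab32 the 1 gene called lower, and 36 were neither. The called share was 5.26%, against 7.74% of all 10092 kept genes (3.43% higher and 4.31% lower), so the family's share was close to the background and is no result about the family. At a limit of 1.5-fold 3 members were higher (Rab43, Rab5b, Rab7l1) and 3 lower (Rab32, Rab34, Rab31), 7.89% in each direction against 10.9% and 10.2% of all kept genes. With a minimum of 5 FPKM the same 2 genes were called among 31 members, against 8.67% of all genes then kept. The median log2 ratio of the kept members was 0.05, against 0.06 over all kept genes. With either other scaling of the libraries it was -0.02, against a median over all kept genes of 0.0008 with median-of-ratios scaling and 0.003 with trimmed-mean scaling. The quartiles of the members' log2 ratios were -0.16 and 0.23, against -0.22 and 0.32 for all kept genes, and 55.3% of the members lay within 0.25 of 0 on the log2 scale, against 45.9%. The members were more abundant than most kept genes, and the spread was not compared at equal abundance. Counting intervals excluded equality for 25 of the 38 members (65.8%), 16 of them higher and 9 lower. The same held for 56.5% of the 9947 kept genes with a known length (33.3% higher and 23.2% lower), and as more reads give narrower intervals, nothing about the family is read from that count. These intervals do not cover differences between mice, cultures or library preparations.

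The family as a whole was abundant. The kept members had a median of 33.3 FPKM in the WT library and 36.0 in the SIRPα-KO library, against 7.10 and 7.56 FPKM over all kept genes. All members together summed to 2139 FPKM in the WT library and 2291 in the SIRPα-KO library, 0.482% and 0.528% of each library's sum. Without Rab43 the sums were 2034 and 2051 FPKM. The 5 most abundant members held 50.9% of the family's sum in WT and 53.5% in SIRPα-KO. In WT these were, in order, Rab7, Rab5c, Rab8b, Rab10 and Rab1. In SIRPα-KO they were Rab7, Rab5c, Rab43, Rab10 and Rab8b, since Rab43 moved from rank 6 to rank 3. Rab32 moved from rank 7 to rank 17.

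**Figure D1:**
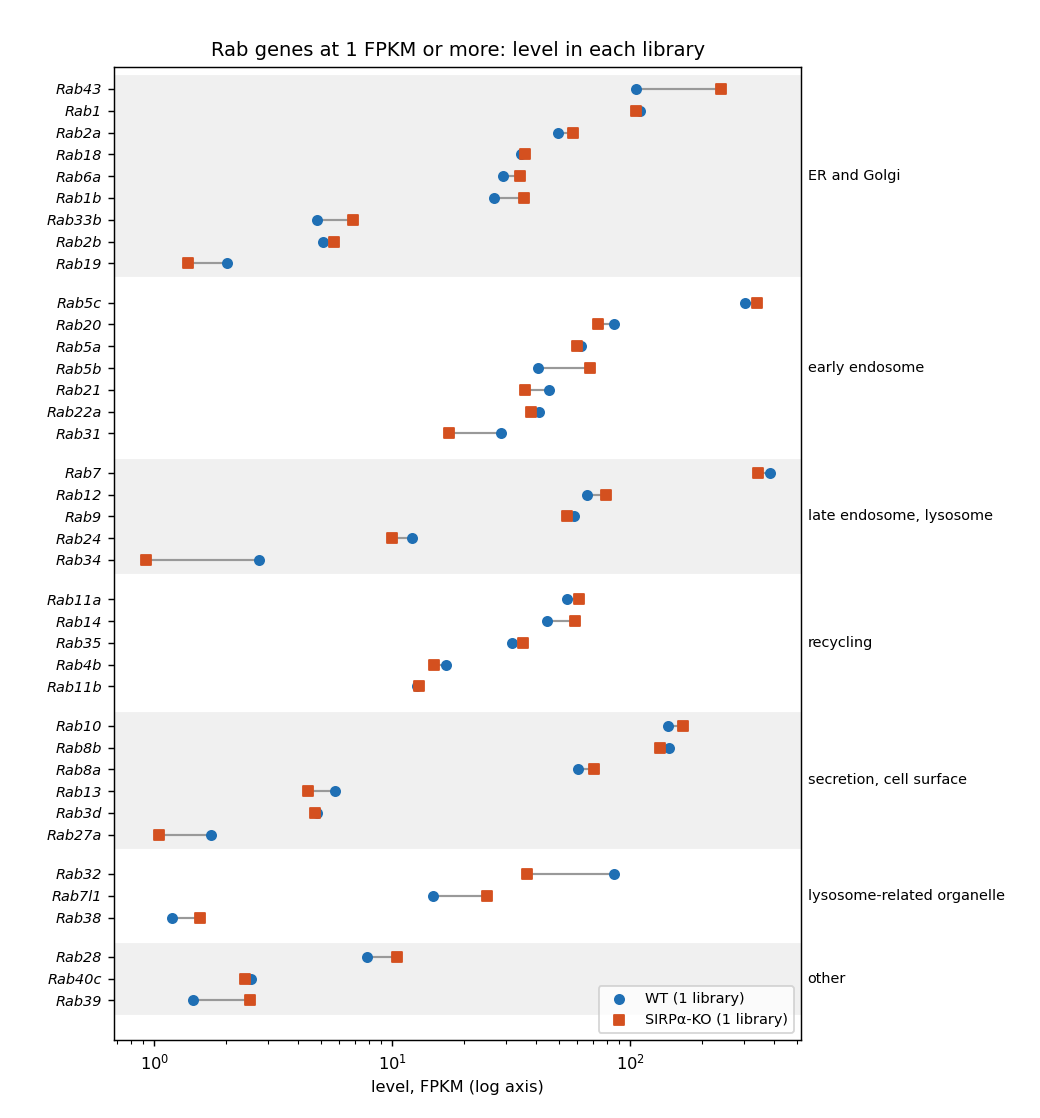
Level in FPKM (log axis) of the 38 kept Rab genes, grouped by the compartment they serve, with a blue circle for the WT library and an orange square for the SIRPα-KO library. Most pairs lie close together, while Rab43 moves from 105.5 to 239.7 FPKM and Rab32 from 85.5 to 36.9 FPKM.

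Rab43 acts between the endoplasmic reticulum and the Golgi and is known from cross-presentation in mouse dendritic cells. It was at 105.5 FPKM in the WT library and 239.7 in the SIRPα-KO library. The SIRPα-KO value was 2.27-fold higher (2.20 to 2.35), from about 5263 and 11842 reads. It accounted for 4.93% of the family's sum in WT and 10.5% in SIRPα-KO. Rab43 lies on chromosome 6 next to Isy1, and 74.5% of its 50-base words also occur in Gm45140, an overlapping gene model on the same strand that has no row in the tables, so its reads cannot be told apart from that model's. Of the dendritic cell markers, Ccl22 (11.2 and 139 FPKM) and Ccr7 (6.93 and 23.8) were higher in the same library as Rab43, and Dpp4 (1.32 and 4.95) was higher as well. Itgax (27.7 and 12.1) was lower, as was Siglech (3.03 and 1.11) at 1.5-fold. Under the filter, Flt3 (0.34 and 0.10) was lower and Zbtb46 (0.20 and 0.70) higher. Of the markers of the cross-presenting subset, Xcr1 was at 3.3 and 2.99 FPKM and Clec9a at 3.36 and 3.34, both within their counting intervals of equality, while the transcription factor Batf3 was at 2.97 and 5.36, 1.805-fold higher (1.098 to 2.99). The part of these cells in the Rab43 value was not tested.

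Rab32 serves melanosomes and other lysosome-related organelles, and in macrophages it takes part in the defence of vacuoles against bacteria. It was at 85.5 FPKM in the WT library and 36.9 in the SIRPα-KO library. The SIRPα-KO value was 2.32-fold lower (2.14 to 2.51), from about 2058 and 879 reads. No 50-base word of Rab32 occurs in another annotated gene. The nearest member outside the limit was Rab34, at a log2 ratio of -0.97 against -1.19 for Rab32. On the higher side the nearest was Rab5b, at 0.71 against 1.18 for Rab43. Of 10 kept neutrophil markers 5 were called lower in the same library as Rab32, while Mpo went the other way (2.38 and 3.34 FPKM). Of 11 kept macrophage markers 1, Csf1r, was called lower and 0 were called higher. Others of that list went the other way without a call, such as Mertk (139.6 and 177.9 FPKM). Of 3 kept B cell markers 0 were called and 2 were lower at 1.5-fold. The part of these genes and their cells in the Rab32 value was not tested.

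The stretches upstream of these 2 genes are shown because they are the members past the limit. Each holds the 250 bases before the start site, 5′ to 3′, from RefSeq; Rab43 has 4 listed start sites and the outermost is used. Capitals would mark a match to any of 4 motifs searched on both strands, and neither stretch has one.
Rab32 (GRCm38.p6 chr10:10558208-10558457, - strand): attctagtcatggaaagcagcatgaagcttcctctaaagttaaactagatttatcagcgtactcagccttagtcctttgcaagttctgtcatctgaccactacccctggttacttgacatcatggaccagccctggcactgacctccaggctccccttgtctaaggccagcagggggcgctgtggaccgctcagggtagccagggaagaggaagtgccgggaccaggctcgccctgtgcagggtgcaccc
Rab43 (GRCm38.p6 chr6:87812165-87812414, - strand): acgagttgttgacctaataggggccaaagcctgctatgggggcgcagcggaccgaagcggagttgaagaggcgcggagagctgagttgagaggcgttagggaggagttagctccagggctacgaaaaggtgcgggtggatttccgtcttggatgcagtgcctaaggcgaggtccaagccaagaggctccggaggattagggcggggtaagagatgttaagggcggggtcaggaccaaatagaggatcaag
The motifs were TCACGTG (the E-box found before many lysosomal genes), TTCNNNGAA (the GAS element of interferon-γ target genes), the interferon-stimulated response element (GAAA, any 2 bases, GAAA) and the NF-κB site (GGGA, any base, TTTCC). RefSeq windows of 300 bases, 250 before and 50 after the start, were found for 45 of the 54 members, 57 windows in all. TCACGTG was in 4 of the members' 57 windows (7.02%) and in 3.77% of all 32851 windows. A few windows make that difference, and nothing about the family is read from it. TTCNNNGAA was in 7.02% against 8.30%, the interferon element in 1.75% against 3.44%, and the NF-κB letters in 0% against 0.411%. A match describes letters and is not a bound site, and a window without one says only that these letters are not in it.

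Stretches around the matches of 4 members are shown next beside their members' values, with the matched letters in capitals. Rab5a and Rab21 carry the E-box as a palindrome, so that both strands match at overlapping positions. Rab34 carries a GAS match in the outer of 2 windows. Rab19 carries a pair of overlapping matches to the interferon element across its start site (the stretch runs to base 15 of the transcript), and a separate GAS match further upstream that is outside the printed stretch.
Rab5a (GRCm38.p6 chr17:53479114-53479163, + strand): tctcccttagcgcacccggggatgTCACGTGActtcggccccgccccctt
Rab21 (GRCm38.p6 chr10:115315597-115315641, - strand): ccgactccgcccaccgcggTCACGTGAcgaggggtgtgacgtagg
Rab34 (GRCm38.p6 chr11:78188207-78188256, + strand): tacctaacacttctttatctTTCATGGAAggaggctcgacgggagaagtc
Rab19 (GRCm38.p6 chr6:39381313-39381367, + strand): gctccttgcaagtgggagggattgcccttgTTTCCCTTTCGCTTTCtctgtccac
Of these genes none was called. Rab5a was at 61.9 and 59.7 FPKM, Rab21 at 45.6 and 36.3, Rab34 at 2.75 and 0.92 and Rab19 at 2.03 and 1.39. The other members with the E-box were Rab23 and Rab24, and the other members with the GAS letters were Rab11a and Rab15.

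Members of early endosomes were all 7 kept, and none was called. The Rab5 paralogs drive fusion of early endosomes and of young phagosomes. Rab5c, the most abundant, was at 304 FPKM in the WT library and 340.3 in the SIRPα-KO library, 1.12-fold higher (1.08 to 1.16). Rab5a was at 61.9 and 59.7 FPKM, a ratio of 0.964 whose interval (0.899 to 1.03) includes equality. Rab5b was at 40.8 and 67.6 FPKM, 1.65-fold higher (1.55 to 1.77). Thus among the 3 paralogs Rab5b stood farthest from equality, and its share of the Rab5 sum was 10.04% in WT and 14.4% in SIRPα-KO. The sum itself was 406.9 and 467.6 FPKM. A pseudogene, Gm13991, shares 9.80% of the words of Rab5b.

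Rab20, which is recruited to phagosomes of interferon-γ-treated macrophages, was at 85.2 FPKM in the WT library and 73.5 in the SIRPα-KO library, 1.16-fold lower (1.07 to 1.25). Rab21, known for endocytosis of integrins, was 1.26-fold lower (1.18 to 1.34). Rab22a, of early and recycling endosomes, was at 41.3 and 38.2 FPKM. Rab31, which sorts cargo between the trans-Golgi and endosomes, was at 28.6 and 17.4 FPKM. Its level in SIRPα-KO was 1.65-fold lower (1.495 to 1.82), the farthest below equality in the early endosome group. Within this group 2 members had a positive and 5 a negative log2 ratio, with a median of -0.11, against 0.06 over all kept genes. No direction of the group is read from so few genes.

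Late endosomes and lysosomes are served by Rab7, the highest member in both libraries, which directs fusion with lysosomes. Rab7 was at 385 FPKM in the WT library and 344 in the SIRPα-KO library, 1.12-fold lower (1.09 to 1.15). It held 18.0% of the family's sum in WT and 15.03% in SIRPα-KO. Other annotated genes, mainly Rab7-ps1, share 11.2% of the 50-base words of Rab7. Rab9, which returns receptors from late endosomes to the Golgi, was at 58.3 and 54.3 FPKM, within its counting interval of equality. Rab12, linked to degradation of the transferrin receptor, was at 66.0 and 79.2 FPKM, 1.201-fold higher (1.12 to 1.29). Rab24, linked to autophagy, was at 12.1 and 9.94 FPKM, also within its counting interval of equality.

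Rab34, which positions lysosomes near the Golgi and acts on macropinosomes, was at 2.75 FPKM in the WT library and 0.92 in the SIRPα-KO library. The ratio of FPKM was 2.99-fold lower, but it rests on about 47 and 16 reads and its interval runs from 1.62 to 5.49. On the log2(FPKM + 1) scale it was just short of the limit, and with a pseudocount of 0.1 it was called lower.

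**Figure D2:**
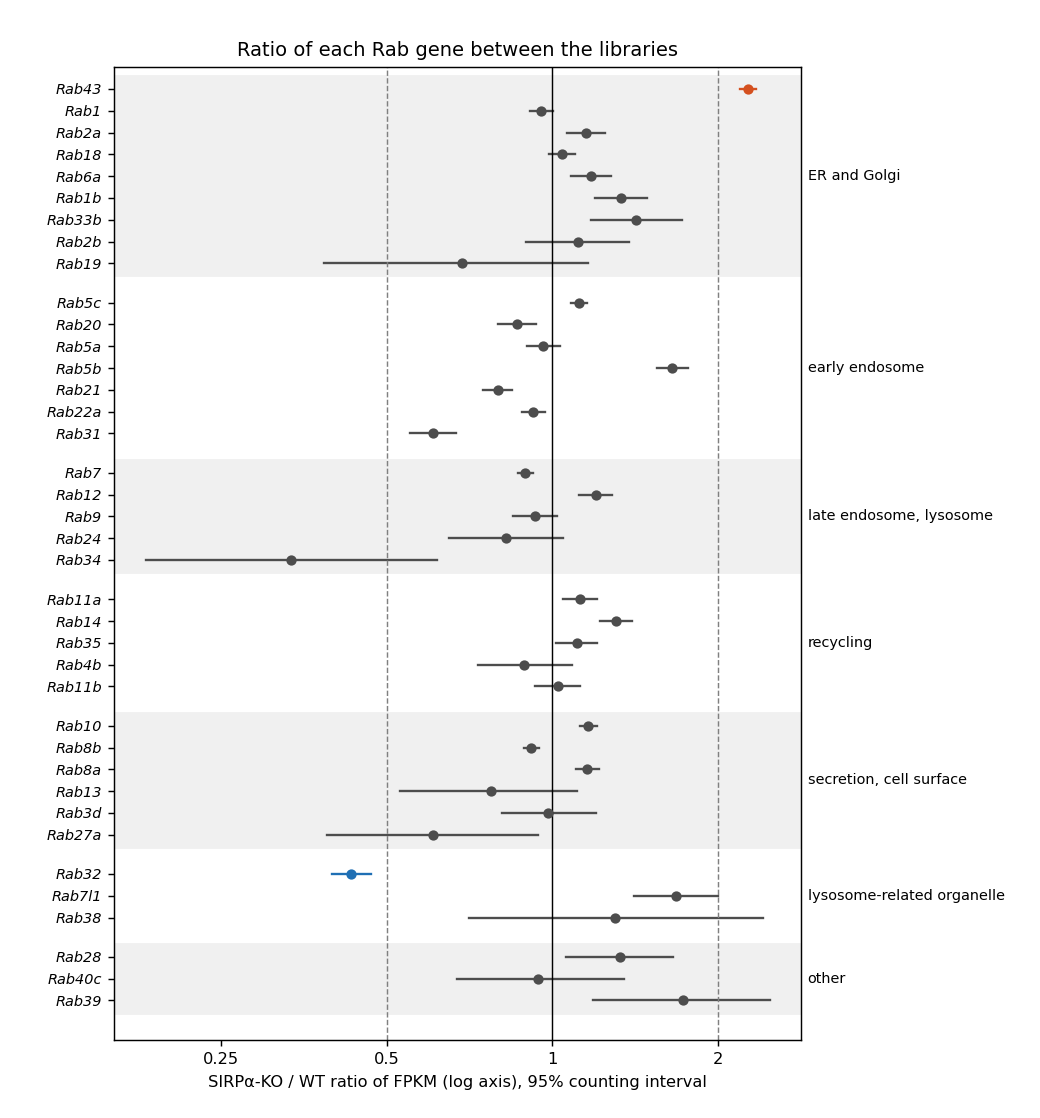
Ratio of FPKM, SIRPα-KO over WT, on a log axis for the 38 kept Rab genes, as points with 95% counting intervals and dashed lines at 2-fold. Rab43 (orange) and Rab32 (blue) were called, Rab34 lies past the dashed line at 0.335 but was not called on the FPKM + 1 scale, and wide bars belong to genes with few reads.

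Endoplasmic reticulum and Golgi members other than Rab43 summed to 263 FPKM in the WT library and 284 in the SIRPα-KO library, with Rab1 the most abundant of them. Rab1 and Rab1b carry vesicles from the endoplasmic reticulum to the Golgi. Rab1 was at 110.4 and 105.5 FPKM, and its interval included equality, while Rab1b was at 26.8 and 35.8 FPKM, 1.33-fold higher (1.196 to 1.49). Rab1b thus made up 19.6% of the pair's sum in WT and 25.3% in SIRPα-KO. No 50-base word of Rab1 occurs in another annotated gene.

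Rab2a, which acts at the Golgi, was at 49.9 and 57.5 FPKM, and Rab6a, of transport back through the Golgi, at 29.2 and 34.4 FPKM. Rab18, found on lipid droplets and the endoplasmic reticulum, was at 34.6 and 36.1 FPKM. Its log2 ratio of 0.06 turned to -0.01 with both other scalings. Rab33b, a Golgi protein that binds the autophagy protein Atg16l1, was at 4.81 and 6.85 FPKM, 1.42-fold higher (1.18 to 1.73). Rab2b was at 5.14 and 5.72 FPKM and Rab19 at 2.03 and 1.39 FPKM, both within their counting intervals of equality. Of the 9 kept members of this group 7 had a positive log2 ratio, with a median of 0.20, against 0.06 over all kept genes. The share of all kept genes with a positive ratio was not computed, so no direction of the group is read from this count.

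Recycling members stayed under 1.5-fold, all 5 of those kept. Rab11a, the main Rab of recycling endosomes, was at 54.4 FPKM in the WT library and 61.2 in the SIRPα-KO library, and its paralog Rab11b at 12.7 and 13 FPKM. Rab11b had a log2 ratio of 0.03, which turned to -0.03 with both other scalings. Rab14, which works between the Golgi and endosomes, was at 44.8 and 58.5 FPKM, 1.31-fold higher (1.22 to 1.40). Rab35, of rapid return to the plasma membrane, was at 32.0 and 35.4 FPKM. Rab4b was at 16.8 and 14.95 FPKM, and 58.1% of its words are shared with other annotated genes, mainly the overlapping model Gm21983. Its paralog Rab4a was at 0.13 FPKM in the WT library, with a listing of 0 in SIRPα-KO.

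Rabs of secretion and surface delivery included 3 abundant genes. Rab10, which carries Toll-like receptor 4 to the macrophage surface, was at 143.7 FPKM in the WT library and 167 in the SIRPα-KO library, 1.16-fold higher (1.12 to 1.21). Rab8b was at 145.8 and 133.6 FPKM, and Rab8a at 60.5 and 70.1 FPKM. These paralogs, both linked to exocytosis, went opposite ways by small amounts, and their sum was 206 FPKM in the WT library and 204 in the SIRPα-KO library. Rab8a made up 29.3% and 34.4% of that sum.

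The remaining secretory members were low. Rab13, known from cell junctions, was at 5.74 and 4.44 FPKM, and Rab3d, of secretory granules, at 4.81 and 4.73 FPKM. Rab27a, which docks secretory lysosomes, was at 1.73 and 1.05 FPKM, 1.65-fold lower with a wide interval (1.06 to 2.57). Its paralog Rab27b was under the filter at 0.46 and 0.89 FPKM, so the sum of the pair was 2.19 and 1.94 FPKM.

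**Figure D3:**
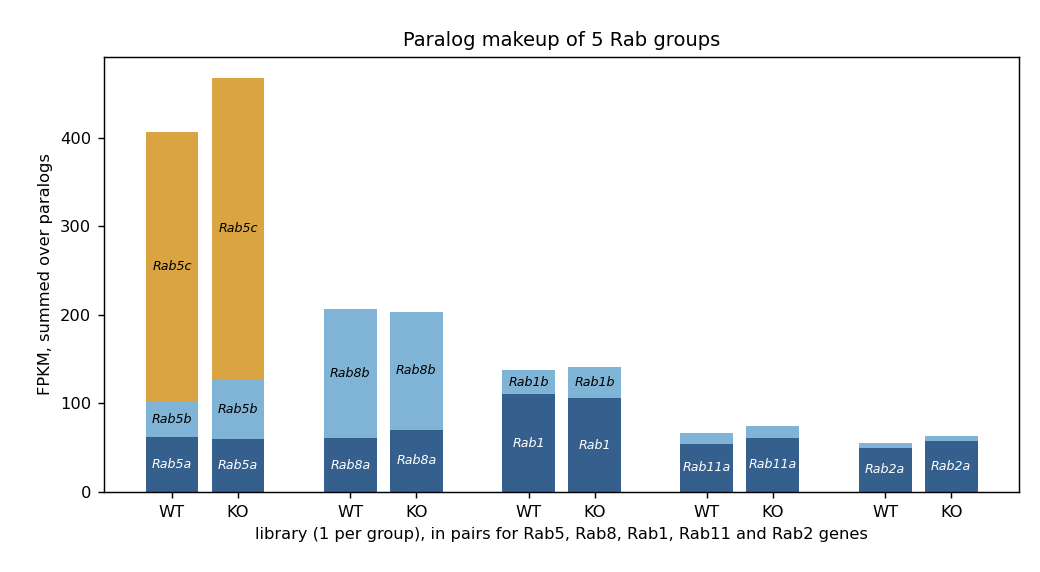
Summed FPKM of the paralogs of 5 Rab groups, as stacked bars for the WT and SIRPα-KO (KO) libraries, starting at 0. The Rab5 sum goes from 406.9 to 467.6 FPKM with a larger Rab5b block, while the Rab8 and Rab1 sums are nearly level.

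Lysosome-related organelles are also served by Rab38 and Rab7l1. Rab38, the closest relative of Rab32, was at 1.19 FPKM in the WT library and 1.55 in the SIRPα-KO library, about 21 and 27 reads, so that no difference was detectable at this depth. Rab7l1 (now Rab29), a partner of the kinase LRRK2, was at 14.9 and 24.9 FPKM, 1.68-fold higher (1.41 to 2.01). Rab32 and Rab7l1 thus lay on opposite sides of equality. Among less studied members, Rab28, linked to cilia, was at 7.86 and 10.4 FPKM, and Rab40c, part of a ubiquitin ligase, at 2.55 and 2.40 FPKM. Rab39, linked to phagosomes and autophagy, was at 1.46 and 2.53 FPKM, 1.73-fold higher from about 49 and 83 reads (1.19 to 2.49).

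The 16 members under the filter reached at most 0.84 FPKM in the WT library and 0.89 in the SIRPα-KO library. Rab44, a large Rab of granulocytes and mast cells, was at 0.84 and 0.33 FPKM, and Rab23, a regulator of Hedgehog signalling, at 0.53 and 0.72. Rab30, of the Golgi, was at 0.04 and 0.40 FPKM. Rab3a and Rab3b, Rabs of regulated secretion in neurons and endocrine cells, were at 0.30 and 0.24 and at 0.03 and 0 FPKM. Rab6b, an isoform enriched in neurons, was at 0.22 and 0.11 FPKM. Rab42 was listed at 0 in both libraries. The rest (Rab3c, Rab4a, Rab9b, Rab15, Rab27b, Rab33a, Rab36, Rab37 and Rab39b) lay between 0 and 0.89 FPKM. Of all members, 4 lie on the X chromosome. Of those, Rab9 was the 1 kept, and its interval included equality.

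Genes that act on Rabs were taken from 5 lists with 159 genes in the tables, of which 139 were kept. Of these 5 were higher and 5 lower, 7.19% together, close to the 7.74% of all kept genes. At 1.5-fold 21 were higher (15.1%, against 10.9% of all kept genes) and 9 lower (6.47%, against 10.2%). The median log2 ratio was 0.04, and of the lists the GAPs had the highest, at 0.15 over 30 kept genes. By the ratio of FPKM alone, Madd (6.40 and 13.5 FPKM), Mon1b (5.23 and 10.7), Appl1 (6.30 and 12.9) and Evi5l (1.10 and 2.23) were also past 2-fold on the higher side and Dennd6b (1.66 and 0.40) on the lower. The share of all kept genes past 2-fold by that ratio was not computed, so these genes are not to be counted against the 7.74%.

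The machinery common to all Rabs was described by 13 kept genes for prenylation and membrane cycling. None was called, against 7.74% of all kept genes, a share too small for a list of this length to differ from visibly, and the median log2 ratio was -0.002. Gdi2, the most abundant GDP dissociation inhibitor, was at 89.5 FPKM in the WT library and 86.5 in the SIRPα-KO library. Arl6ip5, a PRA1 family protein, was the gene of this list at 1.5-fold or more, at 49.99 and 93.7 FPKM, and it carried the rise of the list's sum from 236.7 to 278.9 FPKM, which without it was 186.7 and 185.2. Of 20 tethers and SNAREs, the proteins that execute fusion, none was at 1.5-fold or more on the FPKM + 1 scale, against 21.2% of all kept genes. By the ratio of FPKM alone, Vps18 (8.30 and 5.23 FPKM) was 1.59-fold lower and Nsf (10.1 and 15.3) 1.51-fold higher. Vamp8, the most abundant of the list, was at 160.4 and 161 FPKM.

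**Figure D4:**
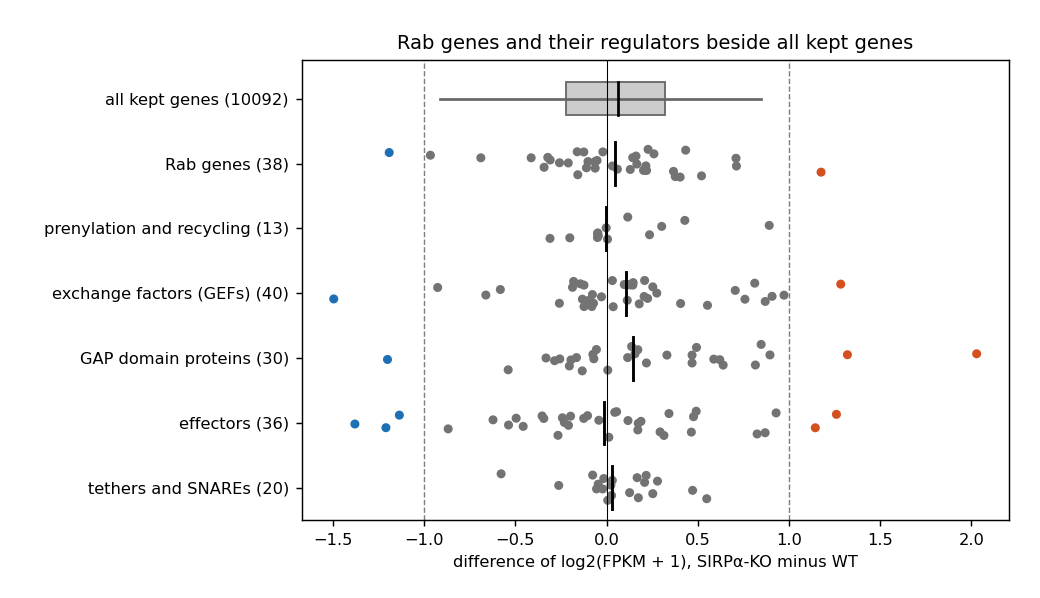
Difference of log2(FPKM + 1), SIRPα-KO minus WT, for the kept Rab genes and for 5 lists of genes that act on Rabs, 1 point per gene with the median as a black line. The top row gives all 10092 kept genes as median, quartiles and 5th to 95th percentiles. Points past the dashed 2-fold lines are coloured, and Tbc1d23 at 2.03 lies farthest out.

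Among 40 kept genes listed as exchange factors 1 was higher and 1 lower, 5% together against 7.74% of all kept genes, which is no result about the list. The list holds Rabl6, which is not established as an exchange factor and was not called. Rin3, a GEF of the Rab5 group, was at 4.46 FPKM in the WT library and 12.3 in the SIRPα-KO library, 2.76-fold higher (2.33 to 3.27). Rin2, its relative and the most abundant gene of the list, was at 165 and 151 FPKM. Rabgef1, a further Rab5 GEF named after its values were seen, was at 25.4 and 16.6 FPKM, short of 2-fold. Dennd3, a GEF of Rab12, was at 4.81 and 1.06 FPKM, 4.54-fold lower (3.45 to 6.09), while Rab12 was at 66.0 and 79.2 FPKM. For Rab32, the GEF subunits Hps1 (3.38 and 3.96 FPKM) and Hps4 (2.63 and 2.19) were short of 1.5-fold, as was its effector Ankrd27 (6.90 and 6.75); these were also named after their values were seen.

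Among 30 kept proteins with a Rab GAP domain 2 were higher and 1 lower, 10% together against 7.74% of all kept genes, which is no result about the list. Tbc1d23, whose domain lacks catalytic residues and which captures endosome-derived vesicles at the Golgi, was at 21.3 FPKM in the WT library and 90.03 in the SIRPα-KO library, 4.23-fold higher (3.93 to 4.56). Tbc1d2b was at 12.9 and 33.7 FPKM, 2.61-fold higher (2.42 to 2.83). Tbc1d9 was at 23.5 and 9.66 FPKM, 2.43-fold lower (2.20 to 2.69). Tbc1d13, a GAP of Rab35 and the most abundant of the list, was at 109 and 120.1 FPKM.

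Among 36 kept effectors 2 were higher and 3 lower, 13.9% together against 7.74% of all kept genes. In a list this short a few genes make that difference, and nothing about the list is read from it. Rabep2, a partner of Rab5 and Rab4, was at 7.85 FPKM in the WT library and 20.2 in the SIRPα-KO library, 2.57-fold higher (2.18 to 3.06). Rilpl2 and Rilpl1 bind Rab8 and Rab10 after these are phosphorylated by LRRK2. Rilpl2 was at 33.1 and 74.4 FPKM, 2.25-fold higher (2.02 to 2.50), and Rilpl1 at 9.33 and 3.70 FPKM, 2.52-fold lower (1.98 to 3.25). The sister genes therefore lay on opposite sides. Lrrk2, the kinase itself, was at 5.80 and 1.94 FPKM, 2.99-fold lower (2.52 to 3.56). Rab11fip1, an effector of Rab11, was at 40.3 and 14.9 FPKM, 2.71-fold lower (2.51 to 2.92). Inpp5b, a phosphoinositide phosphatase that binds Rab5 and the most abundant of the list, was at 98.6 and 121 FPKM. The early endosome tether Eea1 was at 15.4 and 13.3 FPKM, and the Rab7 adaptor Rilp at 0.89 and 0.90 FPKM, under the filter; both were named after their values were seen. Rin3, Dennd3, Tbc1d9, Lrrk2, Rabep2 and Rilpl1 were no longer past 2-fold with a pseudocount of 5.

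Of the 38 kept members, 36 share under 15% of their 50-base words with other annotated genes. Whether strand was used is not stated. Of the kept members 11, among them Rab7, Rab5a, Rab20 and Rab24, have exons that overlap a gene on the opposite strand. The same holds for Tbc1d23, Tbc1d2b, Tbc1d9, Rabep2, Rilpl1 and Rab11fip1 among the called regulators and effectors. Without strand, reads of the overlapping partners could not be told apart from those of these genes.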

How the data were processed

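RNA sequencing was deposited as 1 table per library, with a gene number, symbol and 1 value per gene. The authors' deposited values were read as FPKM, since the step between low values scaled with transcript length: among genes with 1 transcript, 62.7% (WT) and 61.0% (SIRPα-KO) of low values fell no more than 0.15 from whole read numbers, while shuffled lengths gave 26.3% and 26.3%. Per the submitters' processing notes mm9, R 3.3.3 and DESeq2 were used, with no role given; for the aligner, the counting program and strand, the sources used here give nothing. Because whole reads were not recovered for nearly all genes, no count test was run. Ratios used log2(FPKM + 1), a filter that kept genes reaching 1 FPKM in either library, and a limit of 2-fold. Reads were estimated from FPKM, median GENCODE (mouse release 21) transcript length and the step. Alternatives were pseudocounts of 0.1 and 5, no filter or a minimum of 5 FPKM, a limit of 1.5-fold, and median-of-ratios or trimmed-mean scaling. The members and lists were chosen with earlier results of these data known. Named genes were all Rab members, called genes of each list of regulators or effectors, each such list's most abundant gene and Sirpa; other genes, the cell markers, sex-linked transcripts and Malat1 included, were chosen with values known, and some items are not reported here. Symbols were matched to RefSeq (GRCm38.p6) by gene number for all 54 members; promoter coordinates are of that build, which differs from mm9, and no other coordinates are given. T cell and erythroid markers had 4 and 1 kept genes, with 0 called in each list and sums of 29.1 and 31.5 FPKM and of 1.66 and 2.18 FPKM. Steps were tested on simulated data. Python 3.11.15, numpy, pandas and scipy were used.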

Additional observations from a re-analysis of the deposited data

How the results depend on the processing

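Rab43 was among the called higher members and Rab32 among the called lower members under all 7 alternatives. At their levels the changes of filter, the lower limit and the pseudocount of 0.1 could not remove either call. Only the pseudocount of 5 and the other scalings could. The log2 ratios of Rab43 and Rab32 were 1.15 and -1.11 with a pseudocount of 5, and 1.11 and -1.26 with either scaling. With a pseudocount of 0.1 there were 2 lower members, with Rab34 added, and with a limit of 1.5-fold 3 higher and 3 lower members. Called regulators and effectors were 5 higher and 5 lower. With a pseudocount of 0.1 they were 8 higher and 6 lower, and with a pseudocount of 5 they were 3 and 1. With a minimum of 5 FPKM they were 5 higher and 4 lower, and at 1.5-fold 21 and 9. All kept genes called were 346 higher and 435 lower, 589 and 677 with a pseudocount of 0.1, 147 and 187 with a pseudocount of 5, and 1104 and 1034 at 1.5-fold. The pseudocount shrinks low genes and the limit is lower by construction. A change of pseudocount, filter or limit cannot turn the sign of a log2 ratio, so only the other scalings could. These scalings lowered SIRPα-KO values by 0.07 on the log2 scale. Under them 4 single gene values changed sign, those of Rab18 and Rab11b. No paired analysis was possible because each group is 1 library, and for the same reason no replicate could be left out. Depth limits Rab13, Rab19, Rab27a, Rab34, Rab38, Rab39 and Rab40c, which rest on fewer than 100 estimated reads per library.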

Other observations

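The neighbouring families of small GTPases were computed the same way, and were chosen after the Rab values had been seen. Arf, Arl and Sar1 genes act in vesicle budding and lysosome transport, and 24 of the 28 in the tables were kept (Trim23, which has an Arf domain, among them). On the FPKM + 1 scale none was called higher and 1 was called lower, against 3.43% and 4.31% of all kept genes. At 1.5-fold 3 were higher (Arl5b, Arf2 and Arl5c) and 3 lower, against 10.9% and 10.2% of all kept genes. The median log2 ratio was 0.18, and the 28 genes summed to 1177 FPKM in the WT library and 1384 in the SIRPα-KO library. By the ratio of FPKM 3 were at least 2-fold lower, but the share of all kept genes at that ratio was not computed, so nothing is read from this count. The called gene was Arl11, which takes part in macrophage activation, at 9.03 FPKM in the WT library and 2.16 in the SIRPα-KO library. The others past 2-fold by the ratio were Arl6 (1.66 and 0.66 FPKM) and Arl4c (16.25 and 7.88). Arl8a and Arl8b, which move lysosomes along microtubules, were at 84.3 and 96.0 FPKM and at 30.7 and 30.0 FPKM. Arf1 was at 242.6 and 273.8 FPKM, and Arf6, of the plasma membrane, at 63.1 and 81.1 FPKM.

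Of 5 Rab-like genes, which the naming rule leaves out, none was called on the FPKM + 1 scale, and by the ratio of FPKM 2 were at least 2-fold lower. These were Ift27 (2.58 and 0.96 FPKM, 2.69-fold) and Rabl2 (2.76 and 1.31 FPKM, 2.11-fold), both at low levels. For this ratio too the share of all kept genes was not computed, and nothing is read from the count. With Rabl5 (25.7 and 14.7 FPKM), 3 were lower by at least 1.5-fold on the FPKM + 1 scale, as were 10.2% of all kept genes. Rabl5 and Ift27 are subunits of the intraflagellar transport machinery of cilia, and Rabl2 binds to it. Rabl3 was at 3.69 and 3.91 FPKM, and Rabl6 at 7.65 and 8.36 FPKM.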
